A study of Mus musculus with 4 samples.

Results

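Translation initiation, elongation and release factors and the aminoacyl-tRNA synthetases were examined in mouse thymus. Members were taken by gene symbol: every gene whose symbol began with Eif or Eef followed by a digit, Etf1, the Gspt genes, and the synthetase symbols of the form Kars or Lars2. Eif2ak2 was left out by that rule. It found 92 genes among the 10598 measured, and all 92 passed the filter on low values, a mean of at least 10 normalised counts over the libraries. The lowest mean of a member was 302 normalised counts.

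RNA sequencing had been done on thymus of C57BL/6J mice, with 1 library for each of 4 groups. The groups were wild type and CAMKIIgamma-/- (labelled as knockout of Camk2g, the gene of the gamma form of a kinase switched on by calcium and calmodulin), each with vehicle (without MNU) or with MNU, N-methyl-N-nitrosourea, an alkylating mutagen that induces T-cell lymphoma. MNU had been injected once into the peritoneum (75 mg/kg) when mice were 4 to 5 weeks old, and the treatment time is labelled 6 months in all 4 groups. The labels do not say whether animals were pooled. The design asked how loss of the kinase alters the thymus in the malignant and the normal state. There was no replicate in any group, so no difference below has a replicate check and no p-value was computed.

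Translation starts when eIF2 delivers the initiator tRNA to the small ribosomal subunit and eIF4F (the cap-binding protein eIF4E, the scaffold eIF4G and the helicase eIF4A) brings the mRNA, with eIF3 as the platform that holds them together. Elongation factors then feed charged tRNAs and move the ribosome, and release factors free the finished chain. Each tRNA is charged with its amino acid by a synthetase, and cytosol and mitochondria mostly use separate synthetase genes. In proliferating T cells and their tumours protein synthesis is set by MYC, by mTOR through the eIF4E-binding proteins, and by kinases that phosphorylate eIF2 under stress.

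The deposited normalised counts summed to between 32911362 and 34836257 per library. Camk2g, the targeted gene, stood at 2749 and 3173 in wild type without and with MNU and at 489 and 29.7 in knockout without and with MNU. The library labelled knockout without MNU thus kept 17.8% of the level of wild type without MNU, against 1.08% in knockout with MNU. The source of that residue was not tested, so the words knockout without MNU are the label of this library only. Every comparison that uses this library is read with that limit. The thymus with MNU in wild type differed widely in its cell type markers. The summed level of 6 thymic epithelial markers was 56997, 58.0, 60245 and 45197. Every set of 4 values, here and below, runs through wild type without and with MNU, then knockout without and with MNU. All 6 were lower with MNU in wild type, with Foxn1 listed at 0. The 7 T-lineage markers summed to 303573, 156354, 210543 and 258693 (6 of 7 lower with MNU in wild type, Ptcra higher). The 4 markers of dendritic cells and MHC class II summed to 93796, 2922, 114182 and 128192 (4 of 4 lower), the 4 B cell markers to 2374, 1117, 3499 and 6087 (3 of 4 lower) and the 4 fat cell markers to 15775, 1270, 14104 and 4627 (4 of 4 lower, Lep listed at 0). The 3 fibroblast markers summed to 8220, 34190, 11583 and 5832 (3 of 3 higher), the 4 macrophage markers to 4889, 7956, 7751 and 8851 (3 of 4 higher), the 4 neutrophil markers to 530, 1849, 425 and 1702 (4 of 4 higher) and the 4 markers of cycling cells to 70298, 113630, 73313 and 67437 (4 of 4 higher). The part of these differences in the results below was not tested. In bulk tissue, a change in the mix of cells and a change of RNA per cell cannot be told apart.

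Most translation genes were moderately higher in the wild-type thymus with MNU and lay close together in the other 3 libraries. Wild type with MNU was the highest of the 4 libraries for 72 of the 92 genes, the lowest for 12 and in between for 8. Over all 10587 genes past the filter it was the highest for 44.4% and the lowest for 43.3%. Among the other 3 libraries, the ratio of the highest to the lowest value had a median of 1.08 over the members and was under 1.2 for 84 of them. That ratio was not taken over all genes, most of which also differed little between these libraries. On the log2 scale used below, knockout against wild type without MNU had quartiles of -0.11 and 0.14 over all genes. Over the members they were -0.03 and 0.09. Together the 92 genes held 2.06%, 2.65%, 2.19% and 2.10% of all normalised counts. The 13 eIF3 genes held 0.233%, 0.321%, 0.248% and 0.233%, so wild type with MNU was the highest for both.

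Differences were taken on the log2(normalised count + 10) scale, and a fold printed beside 1 gene is its normalised count divided by that of the library compared. In wild type, the median difference with MNU was 0.35 over the members and -0.0052 over all genes, and 77 of 92 members (83.7%) against 49.7% of all genes were above 0. At 1.5-fold, 21 members were higher (22.8% of them, against 17.2% of all genes) and 3 were lower (3.26%, against 22.7%). At 2-fold, 3 were higher (3.26%, against 7.14%) and 0 were lower (against 14.2%). The share of members past a fold on the high side was thus near that of all genes or below it. The members differed from the background in the small share that was lower and in a common shift of less than 1.5-fold.

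**Figure D1:**
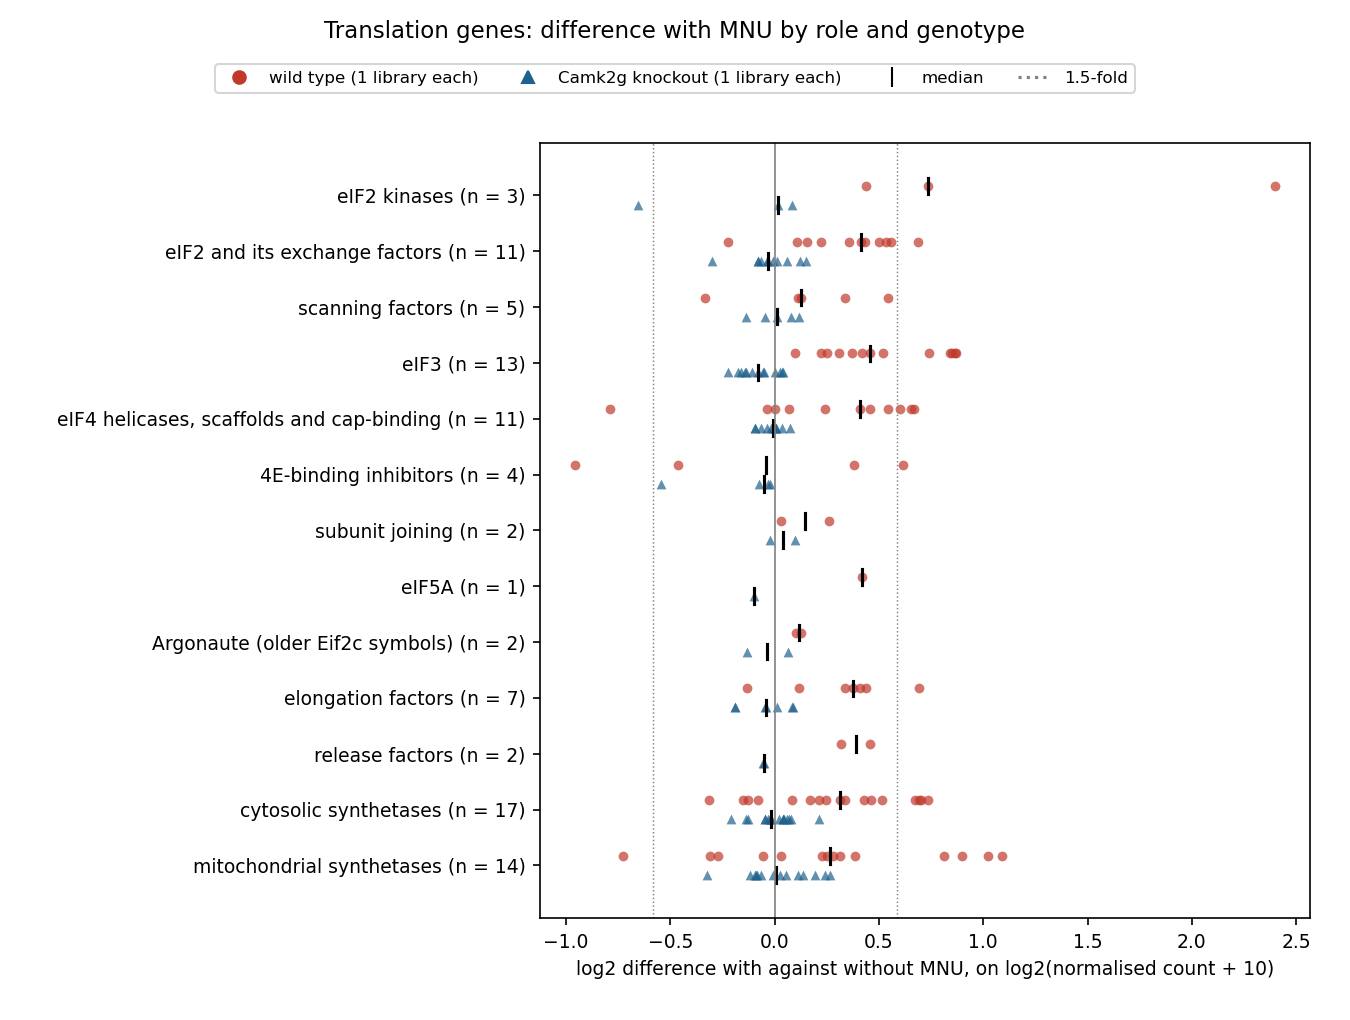
Log2 difference with against without MNU of each of the 92 genes (points), by role, in wild type (circles) and Camk2g knockout (triangles). Each point compares 1 library with 1 library, black ticks are medians and dotted lines mark 1.5-fold. Wild-type points lie mostly right of 0, with Eif2ak3 at 2.40, while knockout points lie around 0.

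The eIF2 kinases, which phosphorylate eIF2 and so slow initiation, held the largest difference of all members. Eif2ak3 encodes PERK, the kinase that senses unfolded protein in the endoplasmic reticulum. It stood at 3033, 16007, 5088 and 3227 normalised counts. With MNU it was 5.28-fold higher in wild type, which ranked 205 among the increases of the 10587 genes on the log2 scale. Eif2ak4 encodes GCN2, the kinase that senses uncharged tRNA, and stood at 692, 1158, 788 and 797. Eif2ak1 encodes the haem-regulated kinase and stood at 2395, 3247, 2348 and 2490. For both, wild type with MNU was the highest of the 4 libraries, by 1.67-fold and 1.36-fold over wild type without MNU.

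Of the 11 genes of eIF2 and the factors that act on it, 10 were above 0 in wild type with MNU (median 0.41). At 1.5-fold 1 of the 11 was higher, against 17.2% of all genes. The eIF2 subunit genes Eif2s1, Eif2s2 and Eif2s3x were 1.35-fold, 1.28-fold and 1.17-fold higher. Eif2b3, a subunit of eIF2B, the exchange factor that reloads eIF2 with GTP, stood at 516, 838, 570 and 461. The other eIF2B subunits lay between 1.08-fold (Eif2b4) and 1.45-fold (Eif2b1) higher. Eif5, which triggers GTP hydrolysis by eIF2 at the start codon, stood at 10767, 15870, 11675 and 11045. Eif2d, which can deliver tRNA without eIF2, was the lowest of the group at 1475, 1262, 1389 and 1541. Wild type with MNU was thus the top library for the core of this cycle and the bottom one for Eif2d.

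When eIF2 is phosphorylated, translation of the transcription factor ATF4 increases and its target genes are induced, a programme called the integrated stress response. Of 20 listed genes of this response 16 were measured, and in wild type with MNU 3 were at least 1.5-fold higher (18.8%, against 17.2% of all genes) and 4 lower (25%, against 22.7%), with a median of 0.08. Both shares were near those of all genes. Atf4 itself stood at 4871, 5230, 4412 and 4656. Ddit3, which encodes the pro-apoptotic factor CHOP, stood at 793, 232, 672 and 686. Ppp1r15a, the phosphatase subunit that reverses eIF2 phosphorylation, stood at 1744, 788, 1116 and 1229. These 2 genes were lowest in the library in which Eif2ak3 was highest, a library that was the lowest for 43.3% of all genes.

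Among the 9 measured genes of amino acid synthesis and transport on that list, Cth, an enzyme of cysteine synthesis, was the 1 clearly lower, at 337, 19.4, 207 and 178. Slc7a11, the cystine importer, stood at 9486, 21551, 8696 and 6027. Slc7a5, the large neutral amino acid transporter, was 1.92-fold higher in wild type with MNU, and its partner Slc3a2 was 1.32-fold higher. The serine and glycine genes Phgdh, Psat1, Psph and Shmt2 were 1.03-fold, 1.04-fold, 1.25-fold and 1.28-fold higher, and the arginine and lysine transporter Slc7a1 was level at 2150, 2148, 1927 and 2056. Ddit4, a stress-induced inhibitor of mTOR, stood at 8552, 17913, 11695 and 3818 and was 3.06-fold lower with than without MNU in the knockout.

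**Figure D2:**
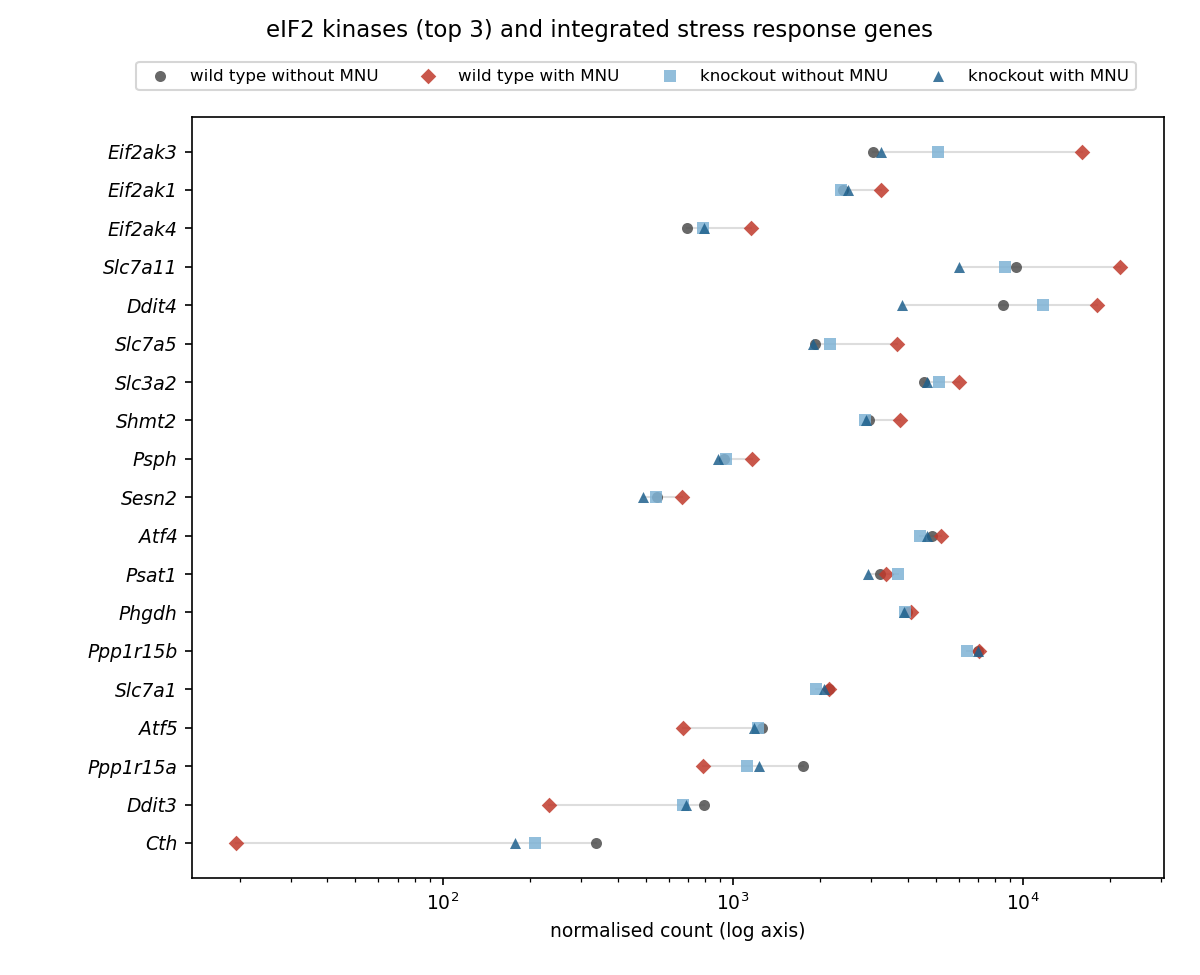
Normalised counts (log axis) of the 3 eIF2 kinase genes and the 16 measured integrated stress response genes in each of the 4 libraries, with 1 symbol per library. Eif2ak3 and Slc7a11 are highest in wild type with MNU, at 16007 and 21551, and Ddit3 and Cth are lowest there, at 232 and 19.4.

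All 13 eIF3 genes were higher in wild type with MNU than without (median 0.46), and no other role with more than 3 genes was above 0 throughout. At 1.5-fold 5 of the 13 were higher, against 17.2% of all genes. All of these 5 but Eif3b lie on chromosome 15, where 40.7% of all measured genes were at least 1.5-fold higher. Eif3d, the subunit that can bind the mRNA cap itself, stood at 5506, 10055, 5975 and 5750. Eif3h stood at 7206, 13144, 7821 and 7003. Eif3l stood at 5486, 9908, 6233 and 5333. For each of these genes wild type with MNU lay above the other 3 libraries, and those 3 lay within 1.2-fold of one another. Eif3b, a core scaffold subunit, was 1.79-fold higher and Eif3e 1.67-fold higher. Eif3a, the largest core subunit, was 1.07-fold higher at 14280, 15297, 13846 and 13870. The subunits thus ranged from 1.07-fold to 1.83-fold higher.

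Position in the genome set some members apart. By the GRCm38 annotation 8 of the 92 genes lie on chromosome 15, namely Eif3d, Eif3e, Eif3h, Eif3l, Eif4b, Eef1d, Tars and Eif2c2. In wild type with MNU their median difference was 0.72 and 6 of 8 were at least 1.5-fold higher, while the other 84 members had a median of 0.33 and 15 past 1.5-fold (17.9%). The 445 genes of chromosome 15 past the filter had a median of 0.40 and 40.7% were at least 1.5-fold higher. On the other 19 chromosomes the medians lay between -0.09 and 0.16 and the shares between 11.3% and 23.5%. Chromosome 15 was thus the only one of the 20 with a median above 0.16.

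Within eIF3, the 4 subunits of chromosome 15 had a median of 0.86 and the other 9 one of 0.37, with Eif3b of chromosome 5 the highest of those 9 at 0.84. In the knockout, the chromosome 15 median with against without MNU was -0.08, where the other chromosomes lay between -0.01 and 0.04. Knockout against wild type without MNU it was 0.09, where the others lay between -0.03 and 0.02, and in the MNU knockout against wild type without MNU it was 0.0019. The chromosome result was chosen after the values were seen, and DNA copy number was not measured here.

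**Figure D3:**
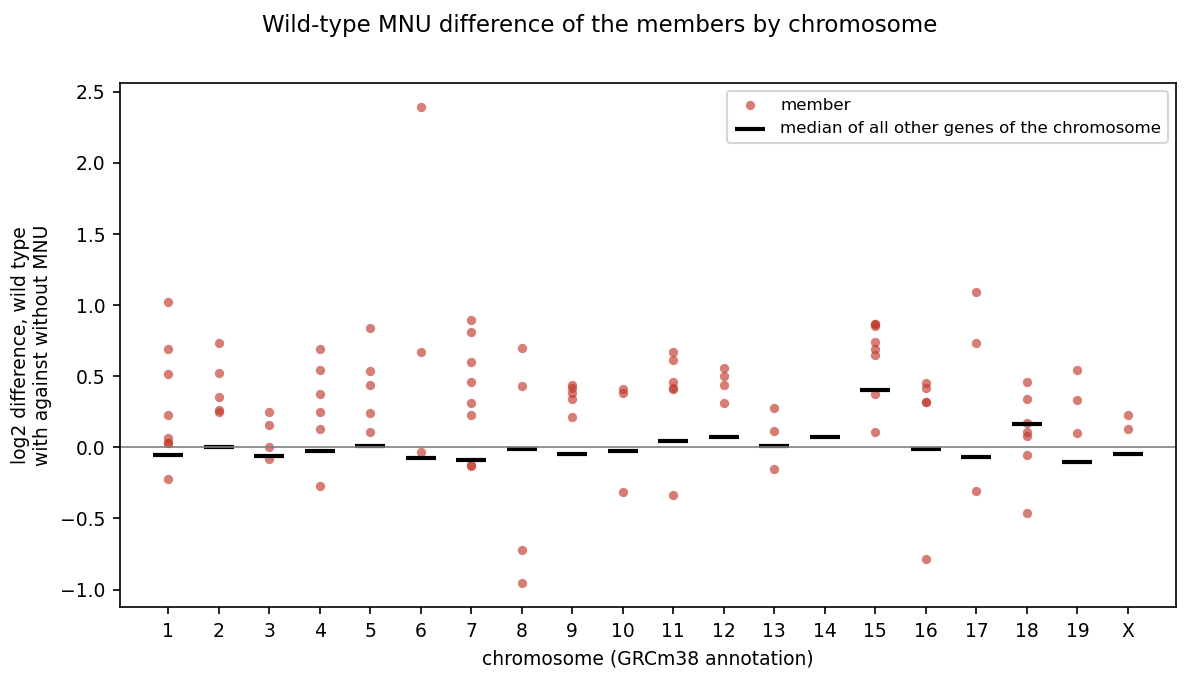
Log2 difference of each member in wild type with against without MNU (points), by chromosome, with the median of all other measured genes of that chromosome (black ticks). The tick of chromosome 15 stands at 0.40 and those of the other chromosomes between -0.10 and 0.16. Of the 8 members on chromosome 15, 6 are at least 1.5-fold higher.

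Among the factors that recruit mRNA, the helicase paralogs parted. Eif4a1 stood at 18795, 24967, 18432 and 18507. Eif4a2, whose product is a near relative with the same helicase activity, stood at 13169, 7624, 12168 and 12820. The ratio of Eif4a1 to Eif4a2 was 1.43, 3.27, 1.51 and 1.44, and in wild type it was 2.29-fold higher with MNU. Eif4a3, a paralog that serves in the exon junction complex, stood at 2983, 4747, 3101 and 3080. So Eif4a2 alone of the 3 was lower in wild type with MNU.

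The scaffold and helper genes of mRNA recruitment were higher together in wild type with MNU. Eif4g2, which encodes a scaffold that does not bind the cap protein, stood at 46184, 69992, 47517 and 46998. Eif4b, a helicase cofactor, stood at 14974, 23530, 15902 and 14879. Eif4g1 and Eif4g3 were 1.37-fold and 1.46-fold higher in wild type with MNU, and Eif4h 1.18-fold. The cap-binding gene Eif4e was flat, at 3298, 3300, 3116 and 3129. Eif4e3, an atypical cap-binding relative, stood at 4344, 4240, 3534 and 3374. Both of its knockout values were below both of its wild-type values.

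That was the widest gap of the 18 members whose 2 knockout values were both below both wild-type values. Such an order was seen in 14.7% of all genes and in 19.6% of the members. The opposite order held for 2 members, Cars and Eif1, and for 15.3% of all genes. It cannot hold where wild type with MNU is the highest library, as it was for 72 of the 92 members. Beside Eif4e3 the widest gap was that of Eif1ax, whose lower wild-type value was 1.08-fold its higher knockout value.

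Eif4ebp1 was the member with the lowest difference in wild type (-0.96). Its product, a target of mTOR, holds eIF4E away from the scaffold until it is phosphorylated. It stood at 832, 424, 775 and 528 and was lower with MNU in both genotypes, 1.96-fold in wild type and 1.47-fold in knockout. It was also the only member past 1.5-fold between the MNU knockout and wild type without MNU, at 1.58-fold lower. Eif4ebp2, the paralog with the same role, stood at 4441, 5783, 4355 and 4283, and the ratio of Eif4ebp2 to Eif4ebp1 was 5.34, 13.6, 5.62 and 8.11. Eif4ebp3 stood at 464, 334, 464 and 455. Eif4enif1, which carries eIF4E into the nucleus, stood at 3462, 5301, 3771 and 3575.

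Of 11 measured genes of mTOR and kinase control outside the rule, 7 were below 0 in wild type with MNU (median -0.17). At 1.5-fold, 1 was higher (9.09%, against 17.2% of all genes) and 0 were lower (against 22.7%). That was Rptor, the subunit through which mTOR complex 1 recruits its substrates, at 2873, 5949, 3346 and 2903. Mtor was 1.12-fold higher, and the upstream inhibitors Tsc1 and Tsc2 were 1.42-fold and 1.26-fold lower. Mknk1, a kinase of eIF4E, was 1.37-fold lower, and Rps6kb1, the S6 kinase gene, 1.22-fold higher. Of 14 partners of mRNA binding and scanning, 3 were at least 1.5-fold higher (21.4%, against 17.2%) and 0 lower (against 22.7%), with a median of 0.17. Pabpc1, the main cytosolic poly(A)-binding protein, stood at 24894, 54777, 30090 and 25516. Its gene lies on chromosome 15, where 40.7% of all measured genes were at least 1.5-fold higher.

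The remaining initiation factors varied less. Eif1, which guards start codon choice, was lower in wild type with MNU at 10259, 8135, 10471 and 11072, whereas its paralog Eif1b stood at 2684, 3396, 2407 and 2610. Eif1ad was 1.46-fold higher, and Eif1ax and Eif1a, which encode near-identical proteins, were 1.09-fold and 1.08-fold higher. Eif5a, the factor that carries hypusine and helps stalled ribosomes, stood at 18619, 24909, 18240 and 17047. Eif5b, which joins the subunits, was flat at 6763, 6903, 6920 and 6816, and Eif6, which keeps them apart, stood at 2504, 3000, 2509 and 2690. Eif2c1 and Eif2c2 are older symbols of the Argonaute genes Ago1 and Ago2, whose proteins bind small RNAs, and were 1.09-fold and 1.08-fold higher.

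Elongation factors were higher in wild type with MNU in 6 of 7 cases (median 0.38), where 49.7% of all genes were above 0. At 1.5-fold 1 of the 7 was higher, against 17.2% of all genes. Eef1a1, which brings charged tRNA to the ribosome, stood at 157678, 213589, 173808 and 168538. Eef2, which moves the ribosome along, stood at 74400, 98907, 78906 and 76632. Eef1b2, an exchange factor for eEF1A, stood at 14554, 23482, 17284 and 15165, a 1.61-fold increase in wild type with MNU. Eef1e1, named for elongation but known as part of the multi-synthetase complex, was 1.08-fold higher. Eef2k, the kinase that inactivates eEF2, was the 1 gene below 0 in the group at 2122, 1935, 1981 and 2108. The release factor genes Etf1 and Gspt1 were 1.37-fold and 1.25-fold higher. Eef1a2, Eif5a2 and Gspt2 were not analysed here.

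The synthetases were sorted by symbol alone, those ending in ars as cytosolic and those ending in ars2 as mitochondrial. A gene that serves both cytosol and mitochondria can thus count as cytosolic here. Among the 17 cytosolic synthetases, 13 were above 0 in wild type with MNU (median 0.31). At 1.5-fold 4 of the 17 were higher, against 17.2% of all genes. Vars, which charges valine, stood at 8213, 13675, 9882 and 8543. Aars, for alanine, stood at 3278, 5337, 3509 and 3396. Tars, for threonine, stood at 2769, 4481, 2771 and 2741, and Gars, for glycine, at 3803, 6070, 4007 and 3645. For these 4 genes wild type with MNU was the highest of the 4 libraries, as it was for 44.4% of all genes. Mars (methionine), Iars (isoleucine), Cars (cysteine) and Sars (serine) were the 4 below 0, with Mars at 3134, 2516, 2738 and 2890 and Iars at 2859, 2573, 2798 and 2878. Wars, the tryptophan enzyme that interferon gamma can induce, was 1.24-fold higher at 2257, 2808, 2345 and 2309.

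Promoter sequences of RefSeq (GRCm38.p6), from 250 bases before to 50 after each annotated start, were matched for 69 members (86 windows, of which those of 1 gene can overlap). The letters TGATGNAA, on either strand, resemble the element through which ATF4 and its partners act. They were found in 5 of 10 windows of cytosolic synthetases, in 0 of 13 of mitochondrial synthetases, in 2 of 63 of the other members and in 2.34% of the 10497 windows of all measured genes. The windows of cytosolic synthetases belong to 10 separate genes. Over all 32851 windows of the table the share was 3.97%. The matches of the 5 genes are shown because cytosolic synthetases held these letters most often. Capitals mark the matched letters, TGATGNAA or its reverse complement.
Aars, chr8:111033840-111033869, plus strand: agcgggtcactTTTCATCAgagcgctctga
Gars, chr6:55037960-55037989, plus strand: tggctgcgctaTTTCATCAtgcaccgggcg
Iars, chr13:49682126-49682155, plus strand: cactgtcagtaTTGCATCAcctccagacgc
Tars, chr15:11399655-11399684, minus strand: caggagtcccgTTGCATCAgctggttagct
Yars, chr4:129189895-129189924, plus strand: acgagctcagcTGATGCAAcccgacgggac

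The 5 genes that hold these letters differed in their values. Aars, Tars and Gars were 1.63-fold, 1.62-fold and 1.60-fold higher in wild type with MNU, Yars (tyrosine) was 1.19-fold higher and Iars was 1.11-fold lower. The promoter of Vars was not analysed here. A match of letters describes the window and is not a measured site.

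The E-box CACGTG, the letters MYC and related factors bind, reads the same on both strands. It was found in 17 of 86 member windows (19.8%), against 10.1% of the windows of all measured genes and 7.15% of all windows of the table. Among windows of the members at least 1.5-fold higher in wild type with MNU it was found in 3 of 21, and among the other members in 14 of 65. It is shown with capitals for 4 initiation and elongation genes whose roles are described above, each on a line with its coordinates.
Eef2, chr10:81176576-81176605, plus strand: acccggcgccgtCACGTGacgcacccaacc
Eif4g1, chr16:20672661-20672690, plus strand: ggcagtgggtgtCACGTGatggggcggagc
Eif4a1, chr11:69672595-69672624, minus strand: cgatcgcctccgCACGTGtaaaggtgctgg
Eif4e, chr3:138527192-138527221, plus strand: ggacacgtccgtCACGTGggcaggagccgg

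Of these, Eef2, Eif4g1 and Eif4a1 were 1.33-fold, 1.37-fold and 1.33-fold higher in wild type with MNU, and Eif4e stood at the same level. The promoters of Aars, Iars and Tars held both motifs, though Aars and Tars were higher in wild type with MNU and Iars lower. That of Aars is shown from base -160 to base -81 (the start site is +1 and the base before it -1) at chr8:111033682-111033761 on the plus strand, where the first capitals are the E-box and the second the ATF4-type letters.
Aars: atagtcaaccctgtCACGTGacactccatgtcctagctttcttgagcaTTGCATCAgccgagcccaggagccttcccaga

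The 14 mitochondrial synthetases spread more widely than the cytosolic ones, from -0.73 (Cars2) to 1.09 (Aars2), against -0.32 (Mars) to 0.73 (Vars). Their median was 0.26. Of the 14, 4 were at least 1.5-fold higher (17.2% of all genes were) and 1 was lower (22.7% of all genes were). Aars2 stood at 2842, 6066, 2842 and 2267, 2.13-fold higher in wild type with MNU. Iars2 stood at 2316, 4715, 2891 and 2664, 2.04-fold higher. Ears2 (234, 444, 271 and 258), for glutamate, and Sars2 (917, 1619, 894 and 841) followed. Cars2 was lower at 1062, 639, 889 and 1053. Vars2 was lowest in knockout without MNU, at 3505, 2827, 2687 and 3231.

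The mitochondrial and cytosolic enzymes of 1 amino acid were not in a fixed ratio. The ratio of Iars2 to Iars was 0.810, 1.83, 1.03 and 0.926, and that of Sars2 to Sars 0.253, 0.473, 0.254 and 0.231, so both were highest in wild type with MNU. The ratio of Vars2 to Vars was 0.427, 0.207, 0.272 and 0.378, and that of Cars2 to Cars 0.817, 0.536, 0.672 and 0.805, so both were lowest there. Of the 9 measured mitochondrial translation factors outside the rule, Gfm1, an elongation factor, was 1.76-fold higher and Gfm2, a recycling factor, 1.56-fold lower, and their median was -0.01. Of the 7 measured genes of the synthetase complex and the synthetases outside the rule, 0 passed 1.5-fold (median 0.10). Of all genes 17.2% were higher and 22.7% lower by that rule.

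**Figure D4:**
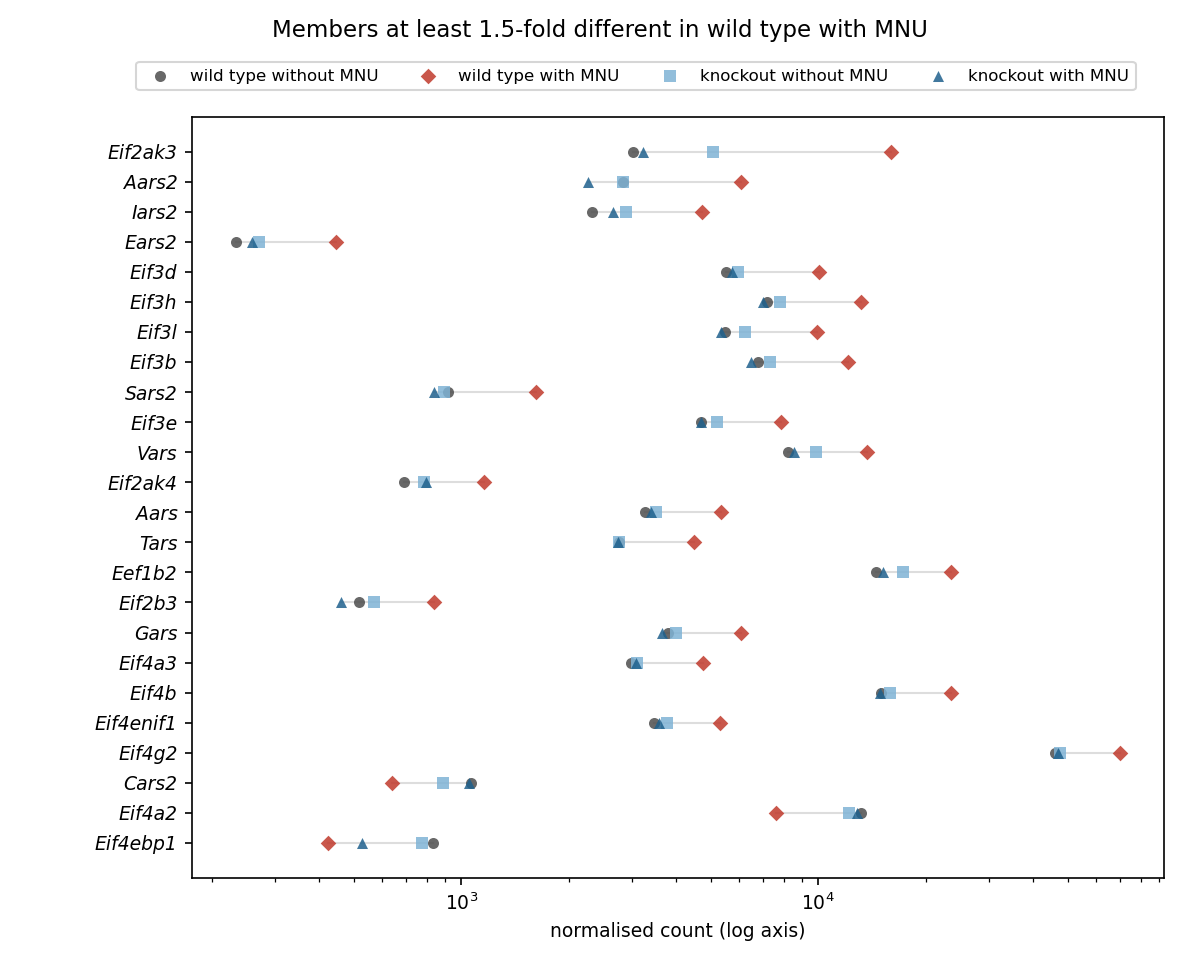
Normalised counts (log axis) in the 4 libraries of the 24 members at least 1.5-fold different in wild type with against without MNU, in order of that difference. The diamonds of wild type with MNU lie right of the other 3 symbols for the upper 21 genes and left of them for Cars2, Eif4a2 and Eif4ebp1.

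In the knockout, the translation genes with and without MNU were nearly level. The median difference was -0.023 over the members and 0.013 over all genes. At 1.5-fold, 0 members were higher (against 1.45% of all genes) and 1, Eif2ak3, was lower (1.09%, against 5.73%). At 2-fold there were 0 in either direction (against 0.331% higher and 2.95% lower). Eif4ebp1 lay just inside 1.5-fold at -0.55, and past it in the alternatives for knockout without MNU given at the end, where Eif2ak3 no longer passed. Against wild type without MNU, the MNU knockout had a median of 0.0088, with 0 members at least 1.5-fold higher (against 4.09%) and 1 lower (against 2.83%), and 0 past 2-fold (against 1.57% and 1.11%).

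Knockout against wild type without MNU, 1 member was at least 1.5-fold higher (1.09%, against 5.71% of all genes) and 0 were lower (against 1.49%), and 0 passed 2-fold (against 2.59% and 0.359%). The median over the members was 0.031. That member was Eif2ak3, at 5088 against 3033. That knockout library also held genes typical of the wild-type MNU library. A set of 42 genes, 0 of them members, was above 1000 in the wild-type MNU library and over 20-fold above both the wild-type vehicle library and the MNU knockout. Of their wild-type MNU excess, the knockout vehicle library held a median share of 15.4%. For Eif2ak3 the same share was 15.2%. The level of Camk2g in it was 15.4% of that in the wild-type MNU library and 17.8% of that in the wild-type vehicle library. Of the 21 members at least 1.5-fold higher in wild type with MNU, 19 stood higher in knockout without MNU than in either wild type without MNU or the MNU knockout. The exceptions were Eif2ak4 and Sars2, and the median share over the 21 was 12.1%. Those 21 were chosen through a low value in wild type without MNU relative to wild type with MNU. That value also enters this comparison and the share, and no count over all genes was taken beside it. With 15.4% of the wild-type MNU profile subtracted, Eif2ak3 stood at 3105 in knockout without MNU, 0.034 on the log2 scale above wild type. Its difference with against without MNU in the knockout turned from -0.66 to 0.055. Both values follow from its own share of 15.2%, near the 15.4% subtracted, and are not a separate check. Whether RNA of the wild-type MNU library entered the knockout vehicle library was not tested.

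Between the 2 thymuses with MNU, the members were lower in the knockout (median -0.34, against 0.0094 for all genes). At 1.5-fold, 20 were lower (21.7%, against 17.1% of all genes) and 2 were higher (2.17%, against 23.5%). At 2-fold, 2 were lower (2.17%, against 7.37%), Eif2ak3 by 4.96-fold and Aars2 by 2.68-fold, and 0 were higher (against 15.0%). This comparison and that within wild type share the wild-type MNU library. The difference of the MNU changes, knockout minus wild type, was at or below -1 on the log2 scale for 6 members (6.52%, against 9.53% of all genes) and at or above 1 for 0 (against 15.8%). At or past 2 on that scale, 1 member, Eif2ak3, was lower (1.09%, against 3.64% of all genes) and 0 were higher (against 6.62%). The 6 past 1 were Eif2ak3, Aars2, Iars2, Eif3l, Eif3h and Eif3b. With the 15.4% share subtracted, 2 of them were still at or below -1, Eif2ak3 at -2.34 and Aars2 at -1.08, and the knockout change was then above 0 for all of the 6 but Eif3l.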

How the data were processed

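One table of the whole series was used. Per the file headers, the authors deposited normalised counts, a signal that is never negative and not whole, for 10598 gene symbols in 4 libraries of thymus RNA. Per the submitters' processing notes, TopHat2 2.0.8b, edgeR and mm9 were used in a role and order not stated. Not given in the sources used here were the counting tool, annotation and normalisation method, so the read depth behind a value is unknown and no interval was computed. Libraries had been prepared with a TruSeq kit from RNA with an integrity number above the submitters' minimum, per the labels' protocols.

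Columns were assigned by the sample titles. Genes with a mean of at least 10 were kept (10587), 10 was added and the log2 taken. With 1 library per group no test was run: genes were counted past 1.5-fold and 2-fold, and lists were described by counts and medians beside those of all genes. The members, lists and thresholds were chosen with earlier results of these data known. Named members were those past 2-fold in any comparison, the 2 largest increases and decreases of each role in wild type with MNU, set paralog pairs and the eIF2 kinases. Named pathway genes were those past 2-fold in wild type with MNU. Others named (such as Eif3l, Tars, Gars, Sars2, Atf4 and Slc7a5) were chosen after their values were seen. Of 64 listed pathway genes outside the rule 57 were measured.

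Chromosomes were taken from a RefSeq table of GRCm38, matched by symbol or synonym for 10504 symbols and all 92 members. No coordinate of the authors' build was used. Reads of Eef1a1, Eif1a, Eif1ax, Eif3j and other genes with near-identical copies can be split between copies, so these are uncertain. Python 3.11.15, pandas 2.3.3 and numpy 2.4.6 were used. Alternatives were pseudocounts of 2.5 and 40, no filter and a minimum mean of 100, median-of-ratios and upper-quartile scaling, and subtraction or replacement of the knockout library without MNU.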

Additional observations from a re-analysis of the deposited data

Results flagged for a closer look

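As deposited, for 6 members the MNU change went up in wild type and down in the knockout, and the changes differed by at least 1 on the log2 scale. With 1 library per group the difference between genotypes was not tested. The change in knockout minus that in wild type was -3.05 for Eif2ak3 (2.40 in wild type and -0.66 in knockout), -1.42 for Aars2 (1.09 and -0.33), -1.14 for Iars2 (1.02 and -0.12), -1.08 for Eif3l (0.85 and -0.22), -1.03 for Eif3h (0.87 and -0.16) and -1.01 for Eif3b (0.84 and -0.18). The knockout library without MNU enters each of these values. With the 15.4% share of the wild-type MNU profile subtracted from it, the knockout change was no longer below 0 for 5 of the 6, at 0.055 for Eif2ak3, 0.0064 for Aars2, 0.057 for Iars2, 0.031 for Eif3h and 0.0051 for Eif3b. It stayed below 0 for Eif3l, at -0.062. For Eif2ak3 the turn restates that its own share was near the one subtracted.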

How the results depend on the processing

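For members, pseudocounts, filters and both scalings left each member count and median of the report within 1.5 times or 0.1 (log2), and under scaling no median of all genes moved by 0.1. With the 15.4% share of the wild-type MNU profile subtracted from knockout without MNU, 0 members were at least 1.5-fold higher in knockout than in wild type without MNU, in place of 1. In the difference of the MNU changes, 2 members were then at or below -1, in place of 6. For those 6 the subtraction could only raise the value, so this fall in number is not a separate check. Eif2ak3 in knockout with against without MNU turned from -0.66 to 0.055 with the share subtracted, and to 0.089 with wild type in place of knockout without MNU. The turn with the share subtracted restates that its own share was near the one subtracted. In the same settings Eif4ebp1 stood at -0.66 and -0.65, in place of -0.55. It was then past 1.5-fold lower with MNU in the knockout, and Eif2ak3 was not. Beside that turn of Eif2ak3, 85 of 298 single-gene values of members and pathway genes moved by 0.1 or more with the share subtracted. With that replacement 56 of 149 did. Of 745 values, 4 moved with a pseudocount of 40 and 2 with one of 2.5. Chromosome 15 stood at a median between 0.37 and 0.41 in wild type with MNU over the settings added after seeing the data. No paired analysis was possible because each group has 1 library. Without replicates, differences of the size most members show cannot be set against a spread between animals.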
